A study of Mus musculus with 18 samples.

Results

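The 39 protein-coding Hox genes of the mouse were examined in 3 lines of P19 cells, a diploid mouse embryonic carcinoma line. They are the rows of the table whose symbol is Hoxa, Hoxb, Hoxc or Hoxd followed by a paralogue number, 39 of 55450 genes in all and of 21951 annotated as protein-coding. The HoxA cluster holds 11 of them on chromosome 6, HoxB 10 on chromosome 11, HoxC 9 on chromosome 15 and HoxD 9 on chromosome 2. The lines were WT cells, genotype Dicer (+/+), HetKO cells, genotype Dicer (+/-), and HM cells, genotype Dicer (HM/-). HetKO carried a frameshift truncation of 1 Dicer1 allele, and HM carried in addition a hotspot mutation of the RNase IIIb domain on the allele that HetKO kept. The labels name no treatment, and poly(A) mRNA of 6 samples per line, 18 in all, was sequenced. HetKO is a line from 1 clone and HM was made from it, so a change that a clone acquired and an effect of the genotype cannot be told apart. Nothing says that the 6 samples of a line came from separate cultures, so the p-values measure the spread between these samples, which may be technical.

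Hox genes encode homeodomain transcription factors that give cells their position along the head-to-tail axis. Within a cluster they lie in the order in which they are used. Genes of low paralogue number are switched on early and in the hindbrain and neck, and genes of high number late and toward the tail, the limb tips and the genital tubercle. In pluripotent cells the clusters are held nearly silent by Polycomb chromatin. Retinoic acid is the classical agent that opens them from the anterior end in embryonic carcinoma cells. The clusters also encode the microRNAs of the miR-10, miR-196 and miR-615 families, which depend on Dicer for processing.

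Values are TPM, transcript abundances corrected for transcript length and scaled to a fixed total, so levels of different genes can be set side by side. A TPM value keeps no sequencing depth, and the number of reads behind it is unknown. The pluripotency markers fixed for the label check summed to 3189 to 4201 TPM in every sample, and Pou5f1 had a mean of 2088, 2095 and 2040 TPM in WT, HetKO and HM. Other listed pluripotency markers varied, with Nanog at a mean of 46.9, 86.3 and 18.8 TPM and Sall4 at 24.5, 46.7 and 8.85. Esrrb and Klf4 had line means of 0.577 to 1.24 TPM. The marker lists of other cell types summed to at most 195 TPM in a sample. Their members differed, with the mesoderm marker T at a mean of 5.83, 32.6 and 24.2 TPM and Eomes at 9.13, 32.3 and 18.5, while Msgn1 was at 0 in all 3 lines. Samples of a line were not equally alike. Over 683 highly expressed genes, the robust SD of the log2 difference within 3 pairs of samples per line was 0.049 to 0.105. For the other pairings it was 0.073 to 0.358. In WT the ranges overlapped, at 0.049 to 0.075 within pairs and 0.073 to 0.205 otherwise, while in HetKO and HM they did not. The pairs were replicates 1 and 4, 2 and 5, and 3 and 6 of WT and of HetKO. In HM they were replicates 1 and 4, 2 and 3, and 5 and 6. The labels name no pairs, so these were chosen by likeness in these data, and their smaller SD is no separate support. HetKO replicates 2 and 5 stood apart in their mesoderm markers, with sums over the 8 listed genes of 195 and 137 TPM against 11.4 to 28.1 in the other 4 HetKO samples. The gap lay in T, at 110 and 66.2 TPM against 0.94 to 9.13, and Eomes, at 80.8 and 67.9 against 7.02 to 15.5. Hand1 went the other way, at 0 in both. HM replicates 2 and 3 had neural progenitor sums over 9 genes of 97.5 and 90.2 TPM against 52.2 to 72.3 in the other 4 HM samples. Nes stood apart there, at 40.2 and 38.4 TPM against 17.4 to 23.1. Tubb3 was at 54.3 and 47.6 TPM, overlapping the 26.0 to 48.5 of the other 4 HM samples. Dcx was lower, at 0.83 and 0.77 against 1.18 to 2.67, and Sox1 overlapped. The list as a whole did not set these 2 samples apart as neural. WT replicates 1 and 4 had fibroblast and mesenchyme sums over 9 genes of 69.1 TPM each, against 37.0 to 39.3 in the other 4 WT samples. Most of that gap was the smooth muscle actin Acta2, at 27.2 and 24.2 TPM against 0.70 to 1.07. Col1a1, Col3a1 and Twist1 were higher there too, Col1a2 was lower, at 4.14 and 4.41 against 6.02 to 7.29, and Pdgfra overlapped. In the pluripotency list, Dppa4 was at 88.9 and 89.5 TPM there against 16.6 to 22.9, and Dppa5a at 41.6 and 37.5 against 2.90 to 3.75. Nanog was lower, at 28.4 and 26.4 against 52.5 to 62.4. Calls on Hox genes that these samples change are given with and without them, and the part of the samples' cell state in the Hox levels was not tested. Dicer1 itself was at 49.2 to 54.8 TPM in WT, 42.9 to 53.8 in HetKO and 35.4 to 44.2 in HM.

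Hox mRNA was scarce in all 3 lines. Averaged over the 18 samples, 36 of the 39 genes were under 1 TPM, 92.3% of the Hox genes against 44.8% of all protein-coding genes. A mean under 0.1 TPM was found for 20 of them, and the median of the 39 means was 0.09 TPM, against 2.33 TPM for protein-coding genes. Of the 702 Hox values in the table, 251 (35.8%) were at 0, yet none of the 39 genes was at 0 in all 18 samples. The highest value of any Hox gene in any sample was 7.85 TPM, for Hoxd1 in HM replicate 2. A mean of at least 1 TPM in at least 1 line was reached by 8 genes, namely Hoxd1, Hoxd3, Hoxd4, Hoxd8, Hoxd13, Hoxc4, Hoxb9 and Hoxb13. Of these, 5 belong to HoxD. No HoxA gene reached it, and the highest line mean there was 0.373 TPM, for Hoxa7 in HM. Only 3 genes, Hoxd1, Hoxd4 and Hoxc4, had a mean of at least 1 TPM over all 18 samples.

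**Figure D1:**
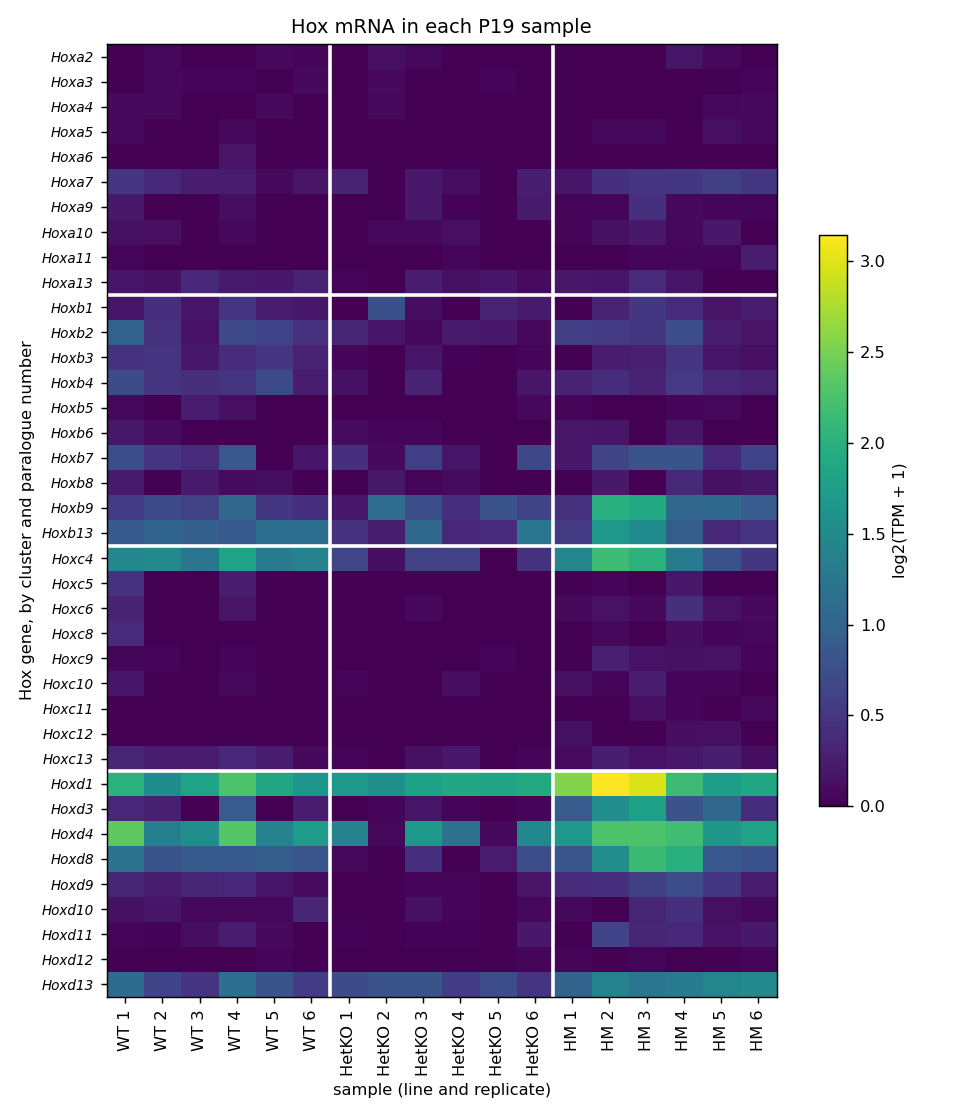
Level of the Hox genes named in the rows (ordered by cluster and paralogue number) in each of the 18 samples (columns), colored by log2(TPM + 1), with white lines between clusters and between lines. Hoxd1 and Hoxd4 are the brightest rows, most HoxA and HoxC rows are near 0, and HM replicates 2 and 3 are the brightest columns.

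Among the clusters, HoxD had the highest summed level in every line. The 9 HoxD genes summed to a median of 6.23 TPM in WT (range 5.30 to 11.24), 4.57 in HetKO (2.80 to 6.07) and 11.8 in HM (8.49 to 18.99). WT replicates 1 and 4, at 10.3 and 11.2 TPM, lay within the HM range, and the other 4 WT samples below it, while HetKO and HM did not overlap. These are the WT samples with the high Acta2, Dppa4 and Dppa5a given above. The HoxC sum had a median of 1.88 TPM in WT (1.53 to 3.21), 0.52 in HetKO (0.03 to 0.77) and 2.24 in HM (0.69 to 4.09). All 6 HetKO samples were below all 6 WT samples there, and HetKO replicates 2 and 5 were close to 0, at 0.08 and 0.03 TPM. For HoxB the medians were 3.56, 1.96 and 3.78 TPM in WT, HetKO and HM, and the 3 ranges overlapped. HoxA stayed between 0.34 and 1.57 TPM in all samples. The sum over all 39 genes was 14.3 ± 4.09 TPM in WT, 7.58 ± 2.11 in HetKO and 20.7 ± 8.30 in HM (SD, n = 6 each). Within HM, replicates 2 and 3 reached 30.2 and 30.9 TPM, against 12.8 to 22.0 in the other 4. Within WT, replicates 1 and 4 reached 19.1 and 20.1 TPM, against 11.4 to 12.1 in the other 4.

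**Figure D2:**
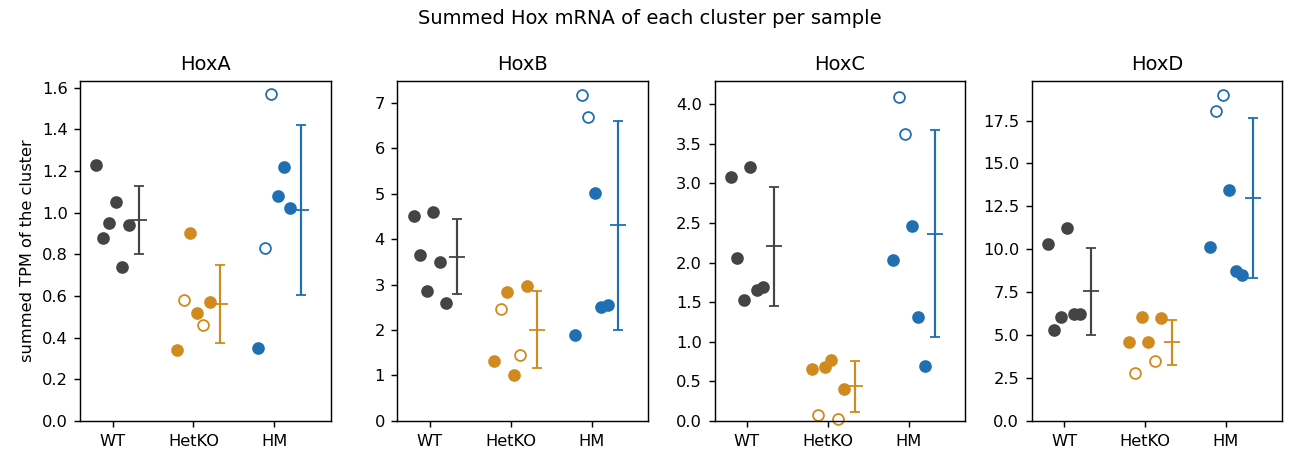
Summed TPM of each Hox cluster per sample, with mean and SD of the 6 samples beside the points; open circles are HetKO replicates 2 and 5 and HM replicates 2 and 3, and each panel has its own axis. HoxD is at 8.49 to 18.99 TPM in HM and at 2.80 to 6.07 in HetKO, and HoxC is under 0.8 TPM in all HetKO samples.

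Levels did not fall or climb steadily along the order of the genes. By position, the 8 anterior genes (paralogues 1 to 3) summed to 4.39 ± 1.15 TPM in WT, 3.12 ± 0.27 in HetKO and 6.94 ± 3.11 in HM, of which Hoxd1 alone gave a mean of 2.67, 2.44 and 4.70 TPM. The 15 central genes (paralogues 4 to 8) summed to 6.73 ± 2.46, 2.28 ± 1.65 and 8.21 ± 3.23 TPM. The central sum was 0.43 and 0.25 TPM in HetKO replicates 2 and 5, against 2.09 to 4.09 in the other 4 HetKO samples. The 16 posterior genes (paralogues 9 to 13) summed to 3.22 ± 0.65, 2.19 ± 0.74 and 5.52 ± 2.38 TPM. Paralogue group 4 was the highest in WT, with a mean sum of 4.82 TPM, and group 12 the lowest, at 0.01. Group 13, the most posterior, was at 2.14 TPM in WT, above groups 2, 3 and 5 to 12.

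Each pair of lines was compared by limma on log2(TPM + 1), over every gene that averaged 1 TPM or more in its 12 samples, with Benjamini-Hochberg adjustment and a threshold of 0.05. All log2 differences below are on this scale, which understates the change of low genes. The limit of 1 TPM left few Hox genes, so the same fit with the limit lowered to 0.1 TPM is given beside it. A gene that passed a limit only through the line in which it is high was bound to differ, so no count over the genes that passed is read as a property of the family. At 1 TPM this held for Hoxd13, Hoxb9 and Hoxd8, with only their HM means above the limit. It also held for Hoxc4, with its HetKO mean below it. At 0.1 TPM, Hoxd3, Hoxd9, Hoxb3 and Hoxb4 had HetKO means under the limit. In HM against WT, 7 Hox genes were tested and 1 passed, Hoxd13, which was higher. Over all genes tested, 19.4% passed as higher and 32.0% as lower. With the limit of 0.1 TPM, 20 Hox genes were tested and 2 passed as higher, Hoxd13 and Hoxd3, against 14.5% of all genes. Between HetKO and WT, 3 Hox genes were tested and 1 passed, Hoxc4, which was lower, where 3.71% of all genes passed as higher and 6.44% as lower. With the limit of 0.1 TPM, 18 were tested and 4 passed as lower, Hoxc4, Hoxd8, Hoxb3 and Hoxb4, against 5.87% of all genes. Between HM and HetKO, 5 were tested and 4 passed as higher, Hoxd1, Hoxd4, Hoxd13 and Hoxc4, where 14.0% of all genes passed as higher and 20.6% as lower. With the limit of 0.1 TPM, 18 were tested and 8 passed as higher, against 11.6% of all genes, namely Hoxd3, Hoxd4, Hoxd8, Hoxd9, Hoxd13, Hoxc4, Hoxb4 and Hoxa7.

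Leaving out WT replicates 1 and 4 gave 2 Hox genes higher in HM than in WT, Hoxd13 and Hoxd4. It left Hoxc4 as the 1 Hox gene lower in HetKO. Over all genes, 2701 of 14043 then passed as higher in HM and 737 of 13999 as lower in HetKO. At the limit of 0.1 TPM, leaving them out gave 3 higher in HM than in WT, Hoxd3, Hoxd4 and Hoxd13. There 3 were lower in HetKO, Hoxb3, Hoxc4 and Hoxd8. Over all genes these calls were 2837 of 20152 and 971 of 19821. The calls on all samples rest on counting 6 per line. When the alike samples were averaged into 3 values per line, 0 Hox genes passed in limma in any of the 3 comparisons at either limit. In that fit at 1 TPM, 3414 of 14043 genes passed in HM against WT, 35 of 13999 in HetKO against WT and 454 of 13762 in HM against HetKO. At 0.1 TPM these were 2949 of 20152, 42 of 19821 and 373 of 19599. So few genes passed in the comparisons with HetKO that 0 Hox genes there says little about the family. At the limit of 1 TPM, the numbers of Hox genes at an unadjusted p under 0.05 in that fit were 0 in HM against WT, 1 in HetKO against WT and 3 in HM against HetKO. How many of all genes reached that p was not counted. The median log2 difference of all genes tested was -0.094 in HM against WT. Centering each sample on its median moved it by 0.18, with 32.1% of genes then higher and 20.5% lower, and quantile normalization moved it by 0.11, with 25.9% higher and 24.8% lower. Under both of these scalings 4 Hox genes passed as higher in HM against WT, adding Hoxd1, Hoxb9 and Hoxd8 to Hoxd13. Of these, Hoxb9, Hoxd8 and Hoxd13 had reached the limit of 1 TPM through HM. Between HetKO and WT 1 Hox gene passed under each scaling. There centering turned the split over all genes to 5.49% higher and 5.34% lower, and quantile normalization to 5.20% and 5.62%. Between HM and HetKO 4 passed under each of them, with splits over all genes of 21.5% higher and 13.8% lower and of 17.1% and 17.6%.

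The whole family can be described without any limit. Of the genes compared between HetKO and WT, 37 Hox genes had a value above 0 in at least 1 sample. The mean log2(TPM + 1) was lower in HetKO for 34 of them (91.9%), with a median difference of -0.065. Among protein-coding genes averaging under 1 TPM the share was 76.1%, with a median of -0.040. Leaving out HetKO replicates 2 and 5 gave 33 of 37 (89.2%), next to 72.8% of protein-coding genes under 1 TPM. Leaving out WT replicates 1 and 4 gave 23 of 33 (69.7%), next to 68.3% of protein-coding genes under 1 TPM. Most Hox genes were thus still lower in HetKO, but the excess over the protein-coding share was seen only with those 2 WT samples. Between HM and HetKO, 36 of 38 were higher in HM (94.7%), with a median of 0.10, against 68.4% and a median of 0.021 for protein-coding genes under 1 TPM. That count was 37 without HetKO replicates 2 and 5 (97.4%, against 63.9%), and 32 without HM replicates 2 and 3 (84.2%, against 65.9%). In HM against WT, 24 of 39 were higher (61.5%), against 43.8%, and without WT replicates 1 and 4 it was 28 of 38 (73.7%), against 53.4%. Rescaling the TPM to 1 median over expressed genes gave 35 of 37, 37 of 38 and 26 of 39. No share of other genes was taken under that rescaling. The Hox counts include the 3 genes averaging 1 TPM or more, which the shares of genes under 1 TPM leave out. Over the Hox genes under 1 TPM, 31 of 34 were lower in HetKO than in WT (91.2%, median -0.063). Of them, 33 of 35 were higher in HM than in HetKO (94.3%, median 0.069), and 22 of 36 higher in HM than in WT (61.1%). These comparisons share their samples, so the counts are not separate pieces of evidence.

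**Figure D3:**
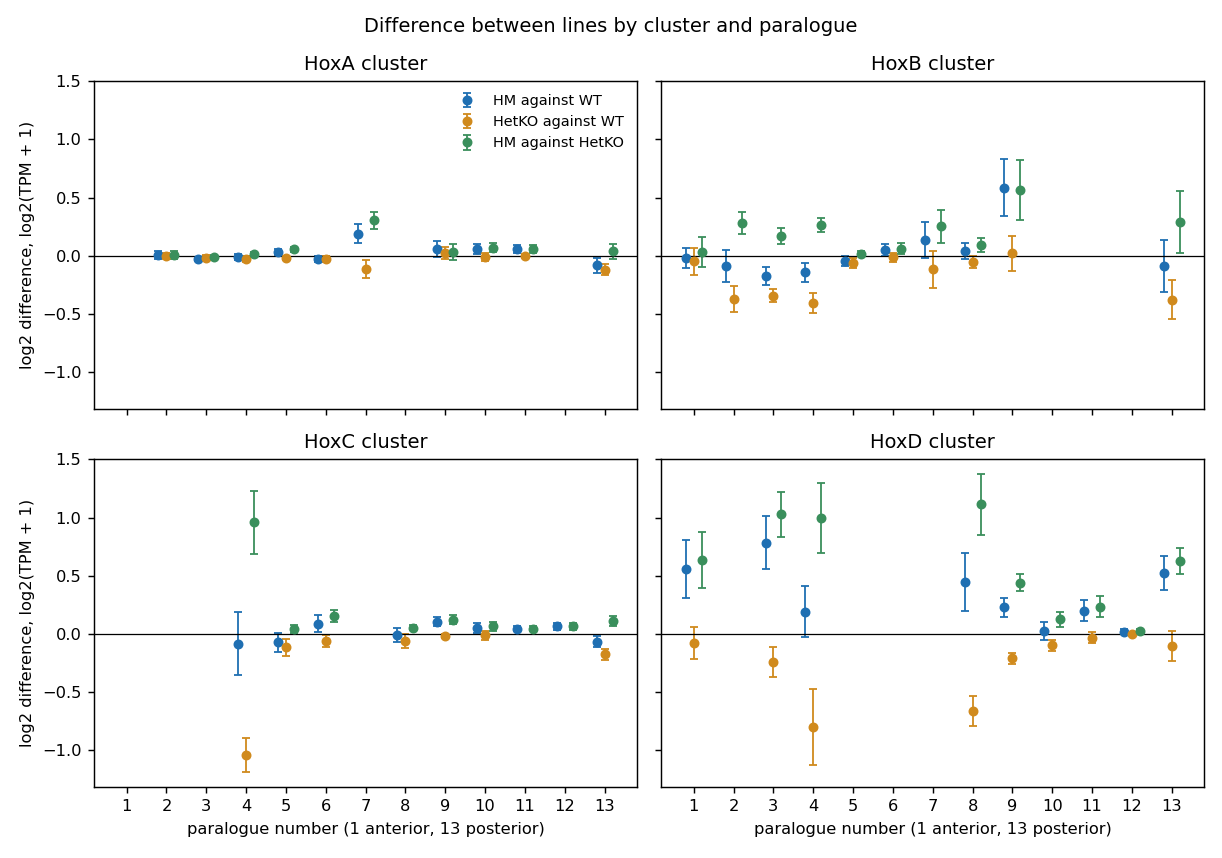
Log2 difference between lines, on log2(TPM + 1) with no limit on the level, for the Hox genes plotted against their paralogue numbers, with 1 panel per cluster; points are limma estimates and bars their standard errors. The largest values are at Hoxd3, Hoxd4, Hoxd8 and Hoxc4, and most HoxA points lie near 0.

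Hoxd1 (chromosome 2, 74762980 to 74765142, plus strand, GRCm38) is the most anterior HoxD gene and is known for its role in pain-sensing neurons. It was the highest Hox gene in each line by median. It ranged from 1.89 to 3.80 TPM in WT with a median of 2.60, from 1.97 to 2.75 in HetKO with a median of 2.52, and from 2.39 to 7.85 in HM with a median of 4.18. The ranges of all 3 lines overlapped, and HM replicates 2 and 3, at 7.85 and 6.90 TPM, stood above every other sample. The log2 difference between HM and HetKO was 0.64 (SE 0.23, adjusted p = 0.0451 from limma). Without HM replicates 2 and 3 it was 0.31 (adjusted p = 0.161 from limma), and without HetKO replicates 2 and 5 it was 0.60 (adjusted p = 0.0903 from limma). Between HM and WT it was 0.56 (SE 0.24, adjusted p = 0.0659 from limma), and between HetKO and WT -0.078, which changed sign under quantile normalization and without WT replicates 1 and 4 (adjusted p = 0.723 from limma).

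Hoxd13 (chromosome 2, 74668310 to 74671599, plus strand) lies at the opposite end of the cluster and is known for patterning the digits and the genital tubercle. It ranged from 0.39 to 1.22 TPM in WT with a median of 0.655, from 0.39 to 0.75 in HetKO with a median of 0.665, and from 1.01 to 1.81 in HM with a median of 1.54. All 6 HM samples were above all 6 HetKO samples, and WT replicates 1 and 4, at 1.15 and 1.22 TPM, lay within the HM range. At the limit of 1 TPM it was the 1 Hox gene that passed in both comparisons of HM. The log2 difference was 0.52 against WT (SE 0.16, adjusted p = 0.0128 from limma) and 0.63 against HetKO (SE 0.13, adjusted p = 0.00377 from limma). Relative to the median of all genes tested these were 0.62 and 0.68. Leaving out HM replicates 2 and 3 left them at 0.52 and 0.62 (adjusted p = 0.0318 and 0.00861 from limma). Without WT replicates 1 and 4 the difference from WT was 0.69 (adjusted p = 0.00137 from limma). A requirement of at least 1.5-fold removed the call against WT.

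Hoxd4 (chromosome 2, 74711929 to 74729160, plus strand) patterns the upper neck and is a known retinoic acid responsive gene. It ranged from 1.56 to 4.17 TPM in WT with a median of 2.12, from 0.05 to 2.20 in HetKO with a median of 1.45, and from 2.17 to 3.83 in HM with a median of 3.01. Within a line the values were spread widely. WT replicates 1 and 4 were at 4.17 and 4.00 TPM, HetKO replicates 2 and 5 at 0.05 and 0.06, and HM replicates 2 and 3 at 3.83 and 3.80. HM replicates 1 and 4, also an alike pair, were at 2.19 and 3.52. The log2 difference was 1.00 in HM against HetKO (SE 0.29, adjusted p = 0.0202 from limma). It was 0.54 without HetKO replicates 2 and 5 (adjusted p = 0.0237 from limma) and 0.85 without HM replicates 2 and 3 (adjusted p = 0.0765 from limma). For HetKO against WT it was -0.81 (adjusted p = 0.122 from limma), and -0.36 without HetKO replicates 2 and 5. HM against WT gave 0.19 (adjusted p = 0.469 from limma), and 0.47 without WT replicates 1 and 4 (adjusted p = 0.033 from limma). HetKO replicates 2 and 5 also held the high mesoderm marker sums given above, and the part of their cell state in the low Hoxd4 was not tested.

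Hoxd8 (chromosome 2, 74704615 to 74707933, plus strand), a central gene of the trunk, ranged from 0.74 to 1.30 TPM in WT with a median of 0.835. It was at 0 to 0.68 TPM in HetKO with a median of 0.12, and at 0.73 to 3.42 in HM with a median of 1.38. All HetKO samples were below all WT and all HM samples, while HM overlapped WT. HM replicates 2, 3 and 4 were at 1.94, 3.42 and 3.00 TPM, and the other 3 HM samples at 0.73 to 0.81, within or just below the WT range. At the limit of 0.1 TPM the log2 difference was -0.67 in HetKO against WT (SE 0.13, adjusted p = 0.00843 from limma) and 1.11 in HM against HetKO (SE 0.26, adjusted p = 0.00747 from limma). Without HetKO replicates 2 and 5 these were -0.61 and 1.05 (adjusted p = 0.0431 and 0.0227 from limma). Hoxd9, the next gene, was lower in level, with means of 0.197, 0.0333 and 0.408 TPM in WT, HetKO and HM, and passed at that limit only in HM against HetKO, at 0.44 (SE 0.085, adjusted p = 0.00299 from limma).

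Hoxd3 (chromosome 2, 74711927 to 74748442, plus strand) shapes the upper neck vertebrae. It ranged from 0 to 0.87 TPM in WT with a median of 0.20, from 0 to 0.13 in HetKO with a median of 0.03, and from 0.33 to 2.45 in HM with a median of 0.96. All HM samples were above all HetKO samples. WT replicate 4, at 0.87 TPM, lay within the HM range, and the other 5 WT samples were at 0.28 or less. At the limit of 0.1 TPM the log2 difference was 0.78 in HM against WT (SE 0.22, adjusted p = 0.0142 from limma) and 1.03 in HM against HetKO (SE 0.19, adjusted p = 0.00231 from limma). Without HM replicates 2 and 3 they were 0.49 (adjusted p = 0.0542 from limma) and 0.74 (adjusted p = 0.00107 from limma). The gene models of Hoxd3 and Hoxd4 overlap, so reads of their shared part were divided between them by the authors' counting and the split is uncertain. The antisense gene Hoxd3os1 overlaps the start of both models. How strand was set in the counting is not given in the sources used here, so reads of the 2 strands may not be told apart.

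The promoters of Hoxd4, Hoxd8 and Hoxd13 are shown, which are among the genes that passed in HM against HetKO, Hoxd8 at the limit of 0.1 TPM. Each is the 250 bases before the RefSeq start (GRCm38.p6, plus strand), 5′ to 3′. Capitals mark matches to AGGTCA, the core element of retinoic acid receptor sites, or to the TATA box TATAAA, read on both strands. In Hoxd13 the capitals join overlapping TATA matches on the plus and the minus strand.
Hoxd13, chr2:74667975-74668224: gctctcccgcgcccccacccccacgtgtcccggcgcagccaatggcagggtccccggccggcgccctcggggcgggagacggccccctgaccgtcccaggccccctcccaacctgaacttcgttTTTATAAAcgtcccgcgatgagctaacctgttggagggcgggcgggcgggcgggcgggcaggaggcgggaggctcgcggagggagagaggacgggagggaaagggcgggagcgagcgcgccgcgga
Hoxd8, chr2:74704365-74704614: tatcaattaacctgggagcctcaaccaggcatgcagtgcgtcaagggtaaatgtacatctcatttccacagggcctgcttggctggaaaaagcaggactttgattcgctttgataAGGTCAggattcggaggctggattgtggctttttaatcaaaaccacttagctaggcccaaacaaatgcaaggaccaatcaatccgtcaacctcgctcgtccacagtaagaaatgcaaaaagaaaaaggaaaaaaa
Hoxd4, chr2:74721728-74721977: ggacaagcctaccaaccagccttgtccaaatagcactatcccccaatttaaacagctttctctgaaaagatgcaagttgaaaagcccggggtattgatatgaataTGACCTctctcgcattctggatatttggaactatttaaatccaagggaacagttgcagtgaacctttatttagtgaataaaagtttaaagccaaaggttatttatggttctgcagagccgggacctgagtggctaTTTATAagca
The Hoxd13 window is rich in G and C, at 74.4%, with 31 CpG dinucleotides, whereas those of Hoxd8 and Hoxd4 are at 44.4% and 40.4% with 6 and 3. A window was found for 22 of the 39 Hox genes, 24 windows in all, but for neither Hoxb9 nor Hoxb13. AGGTCA was in 6 of the 24 windows (25.0%), those of Hoxb4, Hoxc4, Hoxd3, Hoxd4, Hoxd8 and Hoxd10, and in 14.0% of all 32851 promoter windows. TATAAA was in 4 (16.7%), those of Hoxa10, Hoxb8, Hoxd4 and Hoxd13, and in 12.4% of all windows. TGATNNAT, the joint site of Hox and Pbx proteins, was in 4 (16.7%), those of Hoxa2, Hoxb1, Hoxb8 and Hoxd11, and in 7.68% of all. The window of Hoxd1 held none of the 3 elements. Hoxd1 and Hoxc4 passed in HM against HetKO too, as did Hoxd3, Hoxd9, Hoxb4 and Hoxa7 at the limit of 0.1 TPM. None of their windows is shown. The windows of Hoxd9 and Hoxa7 also held none of the 3 elements, and those of Hoxd3 and Hoxb4 held AGGTCA. The Hoxd4 window lies inside the Hoxd3 and Hoxd4 gene models that the TPM values rest on. Matches of this length are descriptions of the letters and not evidence of binding.

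**Figure D4:**
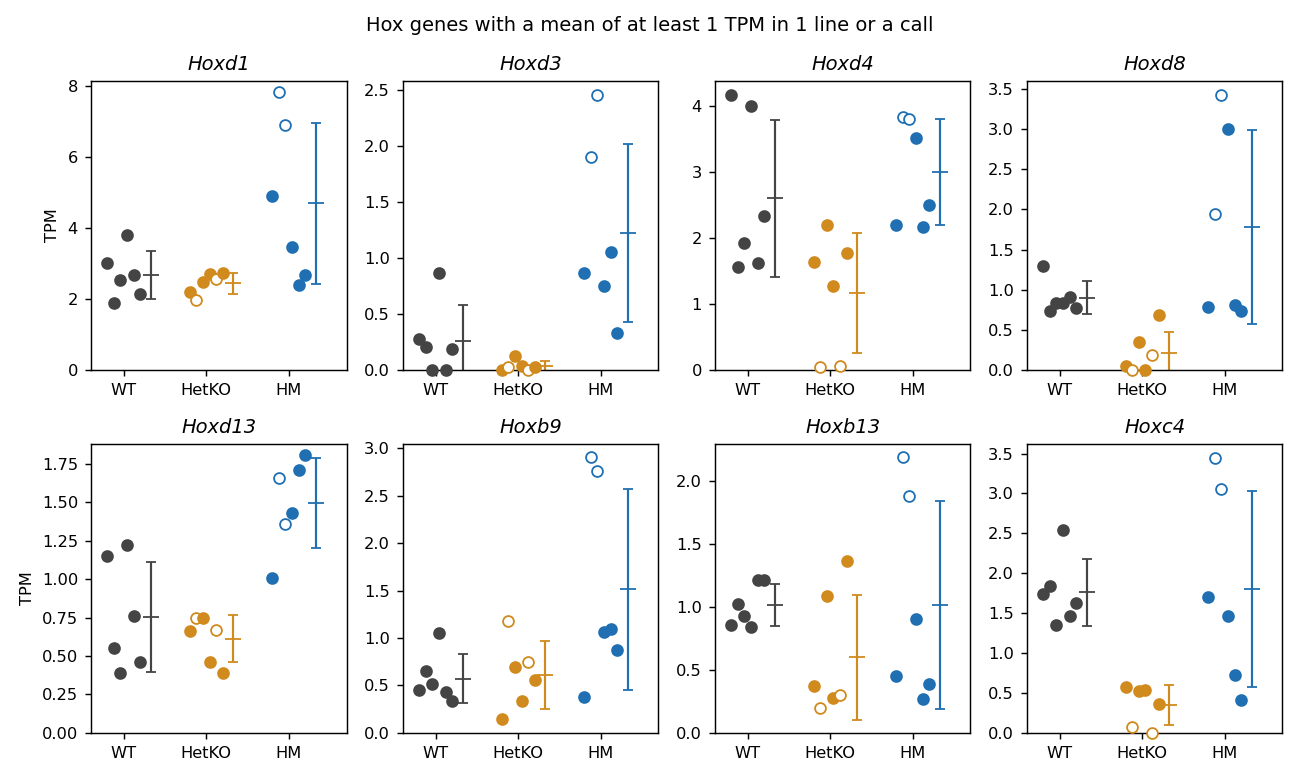
TPM of the 8 Hox genes that averaged 1 TPM or more in 1 line, 1 point per sample in replicate order within each line, with mean and SD (n = 6) beside the points; open circles are HetKO replicates 2 and 5 and HM replicates 2 and 3, and each panel has its own axis from 0. Hoxd13 is the gene whose HM samples, at 1.01 to 1.81 TPM, are all above HetKO without the open circles standing out, and Hoxd4 and Hoxc4 are close to 0 in the open HetKO circles.

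Hoxc4 (chromosome 15, 103018934 to 103036852, plus strand), the anterior end of HoxC, was the clearest difference of HetKO from WT. It ranged from 1.35 to 2.54 TPM in WT with a median of 1.69, from 0 to 0.58 in HetKO with a median of 0.44, and from 0.41 to 3.45 in HM with a median of 1.58. All HetKO samples were below all WT samples, and HM overlapped both. Its HetKO mean was 0.347 TPM, so at the limit of 1 TPM it was tested through WT or HM. At 0.1 TPM, below all 3 line means, it passed in HetKO against WT and in HM against HetKO too (adjusted p = 0.00074 and 0.0192 from limma). The log2 difference in HetKO against WT was -1.04 (SE 0.16, 95% interval -1.40 to -0.69, adjusted p = 0.0015 from limma). It was -0.87 without HetKO replicates 2 and 5 (adjusted p = 0.00362 from limma). For HM against HetKO it was 0.96 (SE 0.28, adjusted p = 0.0192 from limma), and 0.60 without HM replicates 2 and 3 (adjusted p = 0.0631 from limma). Without HetKO replicates 2 and 5, the HetKO samples closest to 0, it was 0.78 (adjusted p = 0.0586 from limma), so the call was lost either way. In that comparison HM replicates 5 and 6, at 0.72 and 0.41 TPM, were close to the HetKO samples. HM and WT differed by -0.087, which turned to 0.092 with centered samples, 0.13 after quantile normalization and 0.0071 without WT replicates 1 and 4 (adjusted p = 0.801 from limma, 95% interval -0.65 to 0.48). No other HoxC gene had a line mean above 0.192 TPM, that of Hoxc13 in WT.

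Hoxb9 (chromosome 11, 96271457 to 96276595, plus strand), a gene of the thoracic region, ranged from 0.34 to 1.05 TPM in WT with a median of 0.485. It was at 0.15 to 1.18 TPM in HetKO with a median of 0.625, and at 0.38 to 2.91 in HM with a median of 1.07. HM replicates 2 and 3, at 2.91 and 2.76 TPM, were above all other samples, and the rest of HM overlapped both other lines. The difference between HM and WT was 0.59 (SE 0.25, adjusted p = 0.0643 from limma) and 0.23 without HM replicates 2 and 3. HM against HetKO gave 0.57 (adjusted p = 0.113 from limma). Hoxb13 (chromosome 11, 96194316 to 96197447, plus strand), the most posterior HoxB gene, known from the tail bud and the prostate, ranged from 0.84 to 1.21 TPM in WT. It ranged from 0.20 to 1.36 TPM in HetKO and from 0.27 to 2.19 in HM, and all 3 lines overlapped. Its difference between HM and WT was -0.091, which turned to 0.087 with centered samples and 0.14 after quantile normalization (adjusted p = 0.762 from limma). Without HM replicates 2 and 3, at 2.19 and 1.88 TPM, it was -0.43 (adjusted p = 0.0291 from limma).

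The other 31 Hox genes had no line mean above 0.508 TPM, that of Hoxb7 in HM, and no sample above 0.97 TPM, that of Hoxb2 in WT replicate 1. Hoxb2, Hoxb3 and Hoxb4 are hindbrain genes of the anterior HoxB cluster. Hoxb3 was at 0.16 to 0.41 TPM in WT and 0 to 0.13 in HetKO without overlap, with a log2 difference of -0.34 at the limit of 0.1 TPM (SE 0.068, adjusted p = 0.00855 from limma). Hoxb4 was at 0.18 to 0.66 TPM in WT and 0 to 0.23 in HetKO, with a difference of -0.41 (SE 0.095, adjusted p = 0.0202 from limma), and of -0.36 without HetKO replicates 2 and 5 (adjusted p = 0.0885 from limma). Without WT replicates 1 and 4 it was also -0.36 (adjusted p = 0.0589 from limma). Between HM and HetKO Hoxb4 differed by 0.26 (adjusted p = 0.0224 from limma), and by 0.21 without HetKO replicates 2 and 5 (adjusted p = 0.0594 from limma). Hoxb2 was at 0.11 to 0.97 and 0.05 to 0.26 TPM, with a difference of -0.37 (adjusted p = 0.0745 from limma). Hoxa7 was at 0 to 0.23 TPM in HetKO and 0.14 to 0.51 in HM, a difference of 0.30 (SE 0.087, adjusted p = 0.022 from limma). Both HetKO samples at 0 were replicates 2 and 5, and without them it was 0.23 (adjusted p = 0.064 from limma). Hoxc11 and Hoxc12 were at 0 in all WT and HetKO samples and above 0 in 3 HM samples each, with no value over 0.10 TPM. Hoxa6 was above 0 in 1 sample of the 18, WT replicate 4, at 0.12 TPM. An exact 0 at an unknown depth shows only that the gene was listed at 0. Levels of Hoxc5 and its neighbours are uncertain, because the Hoxc5 gene model spans the genes from Hoxc6 to Hoxc10.

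The noncoding genes of the clusters were scarce too. Of 17 listed, 16 were in the table and 2 were tested in each comparison. Both tested in HM against HetKO passed as higher, namely Hoxd3os1 at 1.37 (SE 0.29, adjusted p = 0.00394 from limma) and Haglr, a long RNA on the minus strand between Hoxd3 and Hoxd1, at 0.58 (SE 0.18, adjusted p = 0.0272 from limma). Haglr no longer passed without HM replicates 2 and 3, at 0.36 (adjusted p = 0.105 from limma), or without HetKO replicates 2 and 5, at 0.51 (adjusted p = 0.0643 from limma), while Hoxd3os1 passed in both. Hoxd3os1 was at 0.35 to 2.92 TPM in WT, 0 to 0.43 in HetKO and 0.29 to 4.10 in HM. Its WT values were 2.92 TPM in replicate 3 and 0.35 to 0.65 in the other WT samples. The HM values of Hoxd3os1 overlapped HetKO in 1 sample, replicate 6. Its HetKO mean was 0.117 TPM, so in HM against HetKO it reached the limit of 1 TPM through HM. Haglr was at 1.71 to 5.35, 1.48 to 2.53 and 1.84 to 5.14 TPM. In HM against WT they were at 0.68 and 0.15, and neither passed (adjusted p = 0.115 and 0.63 from limma). Between HetKO and WT Haglr and Hotairm1, the RNA at the anterior end of HoxA, were tested and neither passed. The Hoxd3os1 model overlaps those of Hoxd8, Hoxd3 and Hoxd4 on the opposite strand, and these genes were also higher in HM than in HetKO.

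Cofactors and regulators of the clusters were read from the same fits. Their counts stand beside the shares of all genes given above, which were 19.4% higher and 32.0% lower in HM against WT, 3.71% and 6.44% in HetKO against WT, and 14.0% and 20.6% in HM against HetKO. The TALE homeodomain proteins bind DNA jointly with Hox proteins, and 8 of the 9 listed were tested. In HM against WT 2 of the 8 passed as higher and 3 as lower, close to those shares. Pknox1 was at 11.4 ± 1.93 TPM in WT, 6.47 ± 1.56 in HetKO and 127 ± 13.4 in HM (SD, n = 6 each), with no overlap of HM and the other lines. Its log2 difference was 3.38 in HM against WT and -0.74 in HetKO against WT (adjusted p = 0.00849 from limma). Pbx3 was higher in HM than in WT by 0.34, and Pbx4 was lower, at -0.58 (adjusted p = 0.000454 and 0.0106 from limma). Pknox1 was the 1 of 8 that passed in HetKO against WT.

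Polycomb proteins keep Hox clusters silent, and all 29 listed were tested. In HM against WT 9 passed as higher and 9 as lower, against 19.4% and 32.0% of all genes, with a median of -0.064, against -0.094 for all genes tested. Phf19, an accessory factor that recruits Polycomb repressive complex 2, was higher by 1.13, from 5.68 ± 1.06 to 13.6 ± 2.28 TPM. Ezh1, a catalytic subunit of that complex, was lower at -1.27, from 48.6 ± 7.99 to 19.6 ± 3.31 TPM. Cbx7, a subunit of Polycomb repressive complex 1, was lower at -0.58. For HetKO against WT 2 of the 29 passed as higher and 1 as lower. Pcgf2 and Epop were higher by 0.48 and 0.83 and Mtf2 lower at -0.31, and these 3 are all parts of Polycomb complexes. For HM against HetKO 5 passed in each direction.

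Trithorax and MLL proteins counter Polycomb at Hox genes, and all 16 listed were tested. In HM against WT 4 passed as higher and 6 as lower, against 19.4% and 32.0% of all genes, with Mllt1 higher by 1.11, Dpy30 higher by 0.66 and Aff1 lower at -1.06. The 2 that passed in HetKO against WT, Ash2l at -0.96 and Hcfc1 at -0.22, were lower. Against HetKO, 6 passed in HM as higher and 2 as lower. Of the 18 genes of retinoic acid supply, binding and breakdown, 13 were tested in HM against WT, and 3 passed as higher and 6 as lower, beside the same shares. Crabp2, a carrier of retinoic acid, was lower at -1.33, from 16.2 ± 4.27 to 5.75 ± 0.756 TPM. Aldh1a3, an enzyme that makes retinoic acid, was higher by 0.76, and Rxra, a retinoid receptor, by 0.47. Aldh1a3 was the 1 of 12 tested that passed in HetKO against WT, lower at -0.50. Against HetKO, 3 of 11 passed as higher and 1 as lower.

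Of the 13 listed hindbrain and axial regulators, 8 were tested in HM against WT, and 3 passed as higher and 1 as lower, against 19.4% and 32.0% of all genes. Egr2, which activates Hoxb2 in the hindbrain, was higher by 0.66, and the growth factors Fgf5 and Fgf4 by 2.10 and 1.14. Between HetKO and WT 1 of 8 passed as higher, Wnt5a at 1.26, and 2 as lower, Fgf4 at -1.40 and Fgf5 at -1.32. Against HetKO, 3 of 9 passed in HM as higher and 1 as lower. The Cdx and ParaHox genes, 6 in all, and the 2 Even-skipped genes beside the clusters were below the limit in every comparison. Cdx2 and Evx1, chosen after their values were seen, were highest in HetKO replicates 2 and 5. Cdx2, an activator of central Hox genes in the tail bud, was at 2.72 and 2.58 TPM there and at 0.36 or less in the 16 other samples. Evx1, which lies beside Hoxa13, was at 3.20 and 2.23 TPM there and at 0.57 or less elsewhere. Cdx1 did not follow them, at 0 TPM there, at 0.05 or less in the other HetKO samples and at 0.09 to 0.62 in WT. The same 2 samples had Hoxd4 and Hoxc4 at 0.08 TPM or less. Hoxd8 was at 0 and 0.19 TPM there, and as low in HetKO replicates 1 and 4, at 0.05 and 0. Other Hox genes went the opposite way. Hoxb1, at 0.70 and 0.24 TPM, and Hoxb9, at 1.18 and 0.75, had their highest HetKO values in replicates 2 and 5.

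The genes around each cluster were set beside the Hox genes. Counting non-Hox genes within 1000000 bases of the outermost Hox genes, 9 were tested around HoxD in HM against WT, of which 2 passed as higher and 3 as lower, against 19.4% and 32.0% of all genes, with a median of -0.14. The 3 lower genes lie on the Hoxd13 side of the cluster. They are Atf2 at -0.76, Atp5g3 at -0.71 and Lnpk at -0.59, and Atf2 fell from 36.0 ± 2.08 to 20.8 ± 0.895 TPM. Hoxd13 itself, the nearest Hox gene to them, was higher in HM. The 2 higher genes, Mtx2 at 0.23 and Nfe2l2 at 0.50, lie on the Hoxd1 side. Of these 9 genes, 1 passed in HetKO against WT, as higher. Around HoxC, 16 of 33 tested were lower in HM than in WT and 3 higher, against the same 32.0% and 19.4%, with Eif4b at -0.51, Aaas at -0.68 and Pde1b at -1.08. In HetKO, where Hoxc4 was lower, 1 of 34 genes around HoxC passed as lower and 0 as higher, against 6.44% and 3.71% of all genes, with a median of -0.19. Around HoxB, 8 of 33 were higher and 12 lower in HM than in WT, against 19.4% and 32.0%, with Copz2 at -1.86, Gngt2 at -0.90 and Cdk5rap3 at -0.50. Between HetKO and WT 11 of 32 were higher there and 0 lower, against 3.71% and 6.44% of all genes, with a median of 0.30, while Hoxb3 and Hoxb4 were lower. Around HoxA, 2 of 8 were higher in HM than in WT, Cbx3 at 0.41 and Hnrnpa2b1 at 0.28, and 2 lower, Hibadh among them at -0.68.

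**Figure D5:**
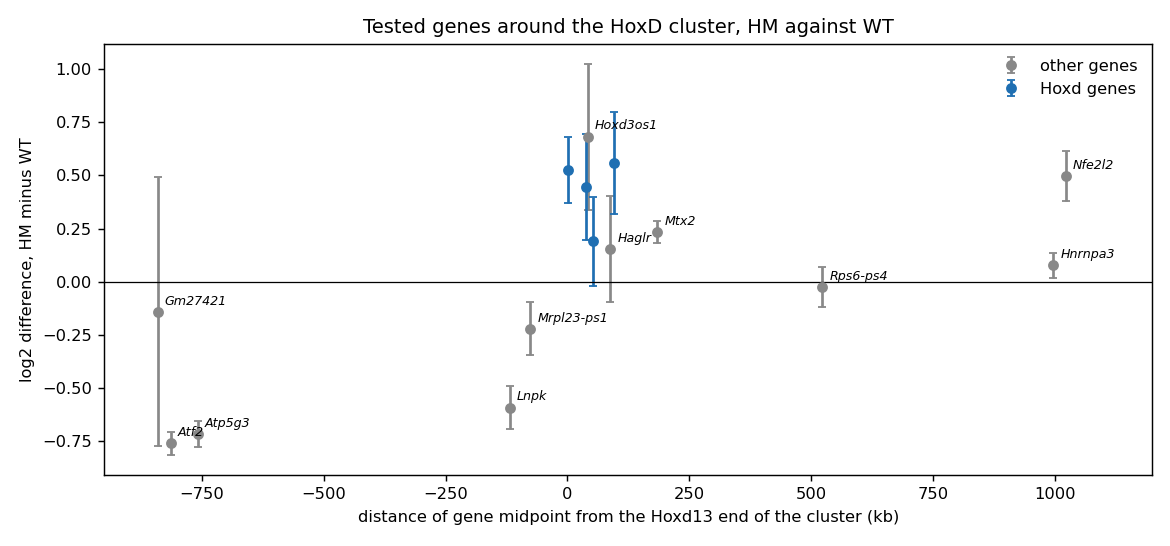
Log2 difference between HM and WT (limma estimate with its standard error) of the tested genes around HoxD against the distance of each gene's midpoint from the Hoxd13 end of the cluster in kb. The tested Hoxd genes, in blue, lie at 0.19 to 0.56, while Lnpk, Atp5g3 and Atf2 on the Hoxd13 side lie at -0.59 to -0.76. On the Hoxd1 side Mtx2, at 0.23, and Nfe2l2, at 0.50, lie within the range of the Hoxd genes.

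MicroRNAs of the clusters have known sites in Hox mRNAs, and the lines differ in Dicer, so the mature strands that come from the 5′ arm of the miR-10, miR-196 and miR-615 hairpins are shown with the seed, bases 2 to 8, in capitals (RefSeq, GRCm38.p6). The miR-10 strands share 1 seed, the miR-196 strands another, and miR-615-5p has its own. Sites were searched for the miR-10 and the miR-196 seed.
miR-10a-5p: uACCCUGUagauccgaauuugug
miR-10b-5p: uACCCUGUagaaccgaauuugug
miR-196a-5p: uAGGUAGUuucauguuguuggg
miR-196b-5p: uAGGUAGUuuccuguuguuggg
miR-615-5p: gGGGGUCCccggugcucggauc
Mir10b lies at chr2:74726074-74726096 by its 5p strand, inside the Hoxd3 and Hoxd4 gene models, and Mir10a on chromosome 11. Poly(A) mRNA libraries hold neither short RNAs nor their levels, and all of these hairpin genes were at 0 TPM. The match to the miR-196 seed was in the 3′ untranslated region of 9 of the 39 Hox genes (23.1%), against 6.10% of 21028 genes, at a median length of 966 bases for Hox and 960.5 for all genes. None of the 9 reached a line mean of 1 TPM. Hoxa7 held 4 matches, and its call in HM against HetKO at the limit of 0.1 TPM was lost without HetKO replicates 2 and 5, as given above. The miR-10 match was in 4 of 39 (10.3%), against 12.5% of all genes, with Hoxd1 among the 4. Hoxd1 was the only one of the 8 genes above with either match, and its site is shown with the match in capitals, together with a miR-196 site of Hoxa7.
Hoxd1, miR-10 site, chr2:74764930-74764951, plus strand: tagcggaacaaatccACAGGGT
Hoxa7, miR-196 site, chr6:52215211-52215232, minus strand: tactactagccctaaACTACCT
Both are matches of letters, and microRNA levels in these cells were not analysed here.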

How the data were processed

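Poly(A) mRNA was sequenced as stranded, paired-end libraries from WT, HetKO and HM P19 cells, 6 samples each. Read pairs were joined by the authors with BBMerge and counted with RSEM, and the deposited values are TPM rounded to 2 decimals for 55450 genes. The submitters' processing notes name cutadapt, STAR and mm10. All identifiers matched GENCODE M21 (GRCm38), which supplied positions and 3′ untranslated regions. 1 Hox gene is counted in the family, but its own values are not reported here. Depth is unknown, so no interval or floor was set. Groups came from the labels. Genes averaging 1 TPM or more in a comparison's 12 samples were fitted with limma 3.58.1 (R 4.3.3) on log2(TPM + 1), with a variance trend and Benjamini-Hochberg adjustment over all genes. The script was tested on simulated data. Seeds and motifs were searched in Python 3.11.15. Replicate numbers did not pair samples (mean correlation of same-numbered deviations 0.00512 to 0.0621). The Hox genes and gene lists were chosen with earlier results of these data known, and the partner genes named are at most the 3 called genes per list with the smallest adjusted p in HM against WT, then in HetKO against WT. Flanking genes were named by the same rule, at most 3 per cluster in HM against WT, with Mtx2 and Nfe2l2 beside HoxD added. Full values are given for Hox genes with a line mean of at least 1 TPM. Alternatives were another pseudocount, limits of 0.1 TPM and none, centering, quantile normalization, a joint fit, an unequal-variance test, a replicate block, a 1.5-fold requirement, pair means and fits without the doubted samples. Combinations of the limit of 0.1 TPM with the last 2 kinds, and fits without WT replicates 1 and 4, were chosen after seeing the data.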

Additional observations from a re-analysis of the deposited data

Results flagged for a closer look

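In 24 groups of 6 samples (8 genes in 3 lines), 3 held a sample whose gap to its nearest neighbour took more than 0.625 of the range. For independent, normally spread values chance would give about 1.2. The samples here fall into alike pairs and several values are at 0, so that rate is no yardstick for the 3. Hoxd3 was 0.87 TPM in WT replicate 4, against 0 to 0.28 in the other WT samples. Hoxd3 was 0.13 TPM in HetKO replicate 3, against 0 to 0.04 in the others. Hoxd8 was 1.30 TPM in WT replicate 1, against 0.74 to 0.91 in the others.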

How the results depend on the processing

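The number of Hox genes passing in HM against WT was 1 of 7 tested. It was 3 with all 3 lines in a single fit, 4 with centered samples and with quantile normalization, 2 with the limit of 0.1 TPM (20 tested), 2 with no limit (39 tested) 2 without HM replicates 2 and 3, also at the limit of 0.1 TPM, 2 without WT replicates 1 and 4, and 3 without them at 0.1 TPM. It was 0 with at least 1.5-fold and with pair means at either limit. In HetKO against WT it was 1 of 3, 4 with the limit of 0.1 TPM (18 tested), 5 with no limit, 3 at 0.1 TPM without HetKO replicates 2 and 5 and likewise without WT replicates 1 and 4, and 0 with pair means at either limit. In HM against HetKO it was 4 of 5, 8 at 0.1 TPM (18 tested), 9 with no limit, 1 with the unequal-variance test, 1 without HM replicates 2 and 3, 2 without HetKO replicates 2 and 5, and 0 with pair means at either limit. At 0.1 TPM it was 6 without HM replicates 2 and 3 and 5 without HetKO replicates 2 and 5, beside 2293 and 2858 of 19599 genes as higher. The cause of these moves was not tested, except that lower limits tested more genes and pair means used fewer values. Over all genes, those higher in HM than in WT were 2637 of 14043 in the single fit and 2799 of 29312 with no limit. With at least 1.5-fold they were 835 of 14043. Those higher in HM than in HetKO were 1540 of 13762 with the unequal-variance test and 2078 of 28586 with no limit. Without HM replicates 2 and 3 they were 1796 of 13762, and without HetKO replicates 2 and 5 2560. With the replicate block 1, 1 and 4 passed, but the replicate numbers do not pair the samples. In HM against HetKO the block added Hoxb9 (adjusted p = 0.0482 from limma) and lost Hoxd1 (adjusted p = 0.08 from limma).

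Directions turned for results that had not passed. Between HM and WT, Hoxb13 was 0.14 after quantile normalization and 0.087 with centered samples, and Hoxc4 was 0.13 and 0.092, and 0.0071 without WT replicates 1 and 4. Hoxd1 between HetKO and WT was 0.099 after quantile normalization and 0.060 without WT replicates 1 and 4, where Hoxd13 at 0.1 TPM was 0.067. At 0.1 TPM, Hoxb9 between HetKO and WT was -0.13 without HetKO replicates 2 and 5, and Hoxb13 between HM and HetKO was -0.055 without HM replicates 2 and 3. Over 29 gene results and 281 alternatives, 213 kept direction and side of the threshold, 43 lost it, 13 gained it and 12 turned. How many reads lie behind values near 0 is unknown.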
